A study of Homo sapiens with 16 samples.

Results

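The comparison described here set PANC1 cells given gemcitabine and genistein together against control PANC1 cells, and it was followed across every gene that could be tested. Its members were fixed by the sample labels: 2 co-treatment libraries and 2 control libraries, 4 of the 16 libraries of the series, in which 16909 of 63677 listed genes had enough reads to be tested. PANC1 is an established human cell line from a pancreatic ductal carcinoma. The co-treated cells received 40 nM gemcitabine and 50 µM genistein for 24 hours, and the control cells received neither drug. Gemcitabine monotherapy at 40 nM and genistein monotherapy at 50 µM, each for the same time and each with 2 libraries, made up the other PANC1 groups, and the same 4 groups were made in MiaPaCa2, a second pancreatic carcinoma line. Both lines were grown in DMEM with fetal bovine serum, and poly-A RNA was sequenced from bulk cultures. Each line is a single established line, so the groups say nothing about other tumours.

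Gemcitabine is a deoxycytidine analogue. Cells take it up through nucleoside transporters, phosphorylate it with deoxycytidine kinase, and build it into DNA, where it stalls replication forks, while its diphosphate blocks ribonucleotide reductase and drains the deoxynucleotide pool. Cells with stalled forks hold back entry into mitosis and raise checkpoint and stress genes. Genistein is a soy isoflavone that binds estrogen receptors and inhibits tyrosine kinases and topoisomerase II. The integrated stress response is a separate alarm: several kinases phosphorylate eIF2α, bulk translation slows, and translation of ATF4 rises, after which ATF4 drives genes for amino acid supply together with DDIT3 and ATF3. Immediate early genes such as FOS and EGR1 encode transcription factors that are switched on within minutes by kinase cascades without new protein synthesis.

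The 2 control libraries held 21889823 and 31991860 counted reads and the 2 co-treatment libraries 14314926 and 16390908. The study's methods call the 2 libraries of a group biological replicates. They differed from each other far beyond counting noise, with a chi-square per degree of freedom of 35.2 between the controls and 21.6 between the co-treatment libraries. Part of that difference followed base composition, and in opposite directions: for each 10 percentage points of GC content, counts moved on the log2 scale by 0.30 in control I, −0.07 in control II, −0.16 in co-treatment I and 0.24 in co-treatment II. Its part in the results was not tested beyond the GC-corrected counts given beside them. Keratins and vimentin, the markers fixed for a ductal carcinoma line, were abundant as a sum. FPKM, the unit of the deposited level table, is fragments per kilobase of transcript, scaled to depth. The summed FPKM was 5273 and 4765 in control and 2830 and 2967 in co-treatment. Of the control sums VIM, read below as a mesenchymal gene, made up 2735 and 2633. The keratin KRT7 was low, at 21.05 and 13.85 in control and 5.80 and 14.67 in co-treatment. Acinar and islet markers had no counts in these 4 libraries, PECAM1 and CDH5 had none either, and 3 of 4 leukocyte markers had at most 3 counts in each. VWF, the other endothelial marker, had 4 and 3 counts in control and 0 and 0 with co-treatment. The other leukocyte marker, CD68, shares 81.6% of its exon length with another gene on the same strand and had 13 to 17 counts. The FPKM of CD68 was 129.6 and 108.3 in control and 221.2 and 212.6 with co-treatment.

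Co-treatment moved a large part of the PANC1 transcriptome in both directions. Of the 16909 genes tested, 2897 were called, which is 17.1%: 1730 were higher than in control, or 10.2%, and 1167 were lower, or 6.9%. Without co-treatment I there were 1865, 1143 higher and 722 lower, the fewest over the fits that left out 1 library. A gene was called where limma's adjusted p was at most 0.05, the log2 fold change at least 0.4 in size, and the mean FPKM above 1 with co-treatment, the thresholds of the study's methods; on the adjusted p alone 3349 genes passed, or 19.8%. Levels below are counts scaled to library size (CPM, with normalization factors applied), always given for replicate I and then replicate II. In every called gene both co-treatment libraries lay on the same side of both controls, a pattern that 28.6% of all tested genes showed upwards and 23.9% downwards.

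The median called rise was 0.93 on the log2 scale and 122 genes rose by at least 2, against a median of 0.72 and 16 genes among those that fell. Because a call needs an FPKM above 1 with co-treatment, a gene that fell below that level could not be called. Without the FPKM criterion the medians were 0.98 and 0.75, with 187 genes rising and 46 falling by at least 2. Genes for long noncoding RNA made up 13.2% of the genes called higher, 2.23% of those called lower and 7.71% of all tested, or 13.1% and 3.30% of the rises and falls without the FPKM criterion. With a correction for GC content 1571 of the 1730 rises and 1145 of the 1167 falls were called again, among 5063 calls in all. The split between directions depended on the scaling. Among called genes 59.7% were higher as reported, 45.8% after GC correction, 79.9% when libraries were scaled by their totals alone, which shifted the median of all tested genes from 0.01 to 0.17, and 81.6% on log2(FPKM + 1).

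**Figure D1:**
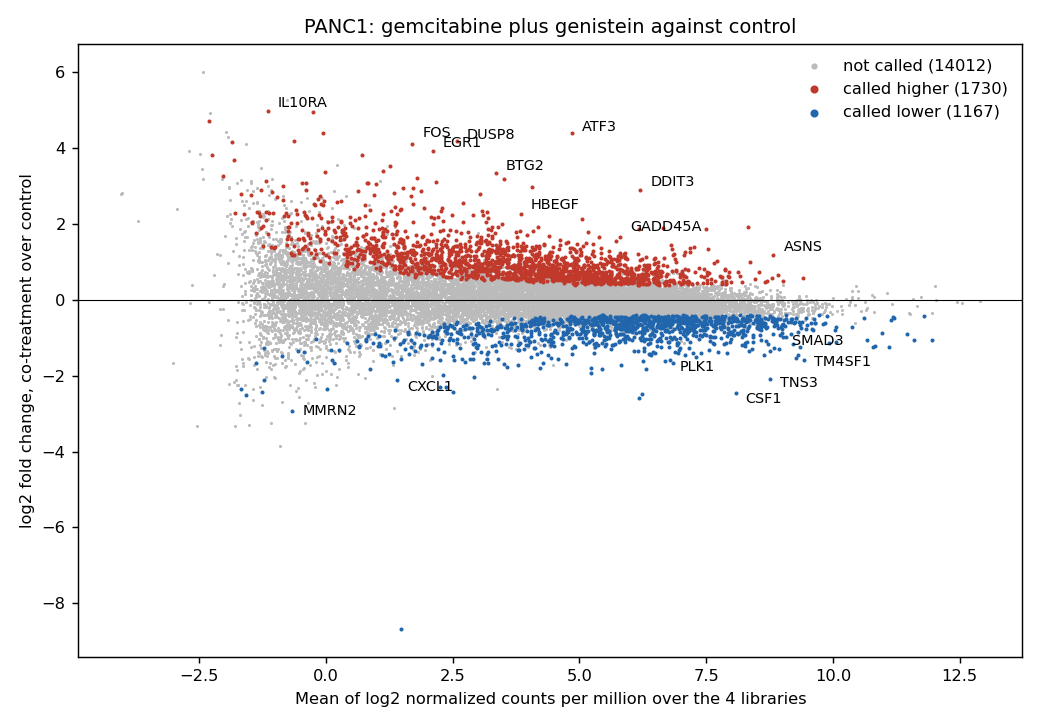
Each point is 1 of 16909 tested genes, with its mean log2 normalized CPM over the 4 libraries on the x axis and its log2 fold change of co-treatment over control on the y axis; red and blue points are the 1730 genes called higher and the 1167 called lower. The tallest called rises, among them ATF3 at 4.40, stand further from 0 than nearly all called falls, and the single blue point near −8.68 is the pseudogene GTF2IP1.

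Leaving aside genes with almost no reads in control, the steepest rise was that of ATF3, a stress-induced transcription factor of the ATF/CREB family. It had 6.77 and 5.84 CPM in control and 129 and 135 CPM with co-treatment. The groups lay far apart, and the rise was 21.1-fold (log2 4.40, SE 0.14, limma adjusted p = 2.38e-05). DUSP8, a phosphatase that switches off the JNK and p38 kinases, went from 1.54 and 1.29 CPM to 20.9 and 30.7 CPM (log2 4.20, SE 0.30). BTG2, an antiproliferative gene induced by DNA damage, went from 3.50 and 2.97 CPM to 30.3 and 34.1 CPM (log2 3.34, SE 0.21). In each of these genes the lowest co-treatment library was several times above the highest control.

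Several of the steepest rises started from almost no reads. IL10RA, the ligand-binding chain of the interleukin-10 receptor, had 1 and 2 counts in control and 37 and 42 with co-treatment, a depth-adjusted ratio of 41.5 with a 95% exact counting interval from 13.7 to 206. TMEM86A, a lysoplasmalogenase, went from 2 and 5 counts to 65 and 86, and GRM2, a glutamate receptor of neurons, from 2 and 5 to 39 and 50. ABCB1, the P-glycoprotein drug efflux pump, went from 5 and 10 counts to 60 and 44 (log2 3.37, SE 0.39). ALOXE3, an epidermal lipoxygenase, went from 22 and 36 counts to 138 and 217, and PTCHD2 rose from 21 and 15 counts (log2 3.53). Separation between the groups was a condition for naming these genes, so it adds no support. Their levels remained low in all 4 libraries. LETM2 rose from 2 and 1 counts to 9 and 13, a ratio of 11.6 with an interval from 3.47 to 60.3, and its call was lost without control II (limma adjusted p = 0.0555).

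Among noncoding genes, LINC01136 went from 1 and 0 counts to 10 and 20, a ratio of 47.3 with an interval from 7.86 to 1930. Its gene, at chr1:203267886-203274443 on the minus strand of GRCh37, lies just before BTG2 at chr1:203274619-203278730 on the plus strand, so the pair of called genes is transcribed away from each other. HCP5, a long noncoding RNA of the HLA region, went from 16 and 17 counts to 90 and 141 (log2 3.41, SE 0.32), and C1orf61 from 3 and 10 counts to 32 and 36 (log2 3.07, SE 0.40). TBX21 and NEDD9, singled out after their values were seen, passed the adjusted p but not the FPKM threshold. TBX21, the master transcription factor of type 1 helper T cells, had 0 counts in both controls and 21 and 20 with co-treatment, and NEDD9, a focal adhesion scaffold, went from 1 and 3 counts to 61 and 55.

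PLCH2, a phospholipase C, dropped from 211 and 152 CPM to 24.1 and 35.8 CPM (log2 −2.58, SE 0.25), and B3GNT7, a glycosyltransferase, from 205 and 158 CPM to 23.8 and 41.4 CPM (log2 −2.49, SE 0.24). CSF1, the growth factor of macrophages, went from 699 and 584 CPM to 105.2 and 125.2 CPM, 5.52-fold lower (log2 −2.46, SE 0.14, limma adjusted p = 0.000149). TNS3, a tensin that ties integrins to the cytoskeleton, went from 977 and 822 CPM to 195 and 222 CPM (log2 −2.09, SE 0.11). The control and co-treatment libraries of these genes were separated by a factor well above the difference within either pair. ZNF467, ZBTB12, APC2, CXCL1, PPP1R1B and ZMIZ1 completed the list, at −1.83 to −2.42.

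For some genes that fell, the count table and the level table went apart. Of the 1167 called lower in counts, 19 had a higher mean FPKM with co-treatment than in control, against 1 of the 1730 called higher that had a lower one. MMRN2 had 42 and 47 counts in control and 2 and 5 with co-treatment, while its FPKM was 2.67 and 1.15 and then 2.34 and 1.52; its call was lost without co-treatment I (limma adjusted p = 0.0571). MALL fell by 2.03 in counts, with an FPKM of 103.8 and 111.2 and then 75.2 and 71.1. GTF2IP1, a pseudogene with near-identical copies that was singled out after its value was seen, went from 1290 and 1607 counts to 3 and 1, with an FPKM of 58.0 and 62.8 and then 36.8 and 30.9, so its assignment of reads is uncertain. Of the other noncoding genes that fell, C20orf166-AS1 went from 1592 and 2109 counts to 258 and 373 (log2 −1.92, SE 0.15), while KRT8P7 and RPL13AP25, processed pseudogenes of KRT8 and RPL13A with at most 24 counts, share sequence with their parent genes, and each lost its call without at least 3 of the 4 libraries in turn.

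Calls in each gene list below stand beside those among all tested genes, 10.2% higher and 6.9% lower. Immediate early transcription factors were the gene list with the highest median, 1.44 on the log2 scale against 0.01 for all tested genes. Of 24 members tested, 12 rose and 2 fell, and with each of the 4 libraries left out in turn 10 to 14 rose and 0 to 2 fell. FOS, a subunit of the AP-1 factor, had 0.91 and 0.71 CPM in control and 11.9 and 15 CPM with co-treatment (log2 4.10, SE 0.26, limma adjusted p = 0.000242). EGR1, a zinc finger factor induced by growth signals, went from 1.10 and 1.13 CPM to 16.4 and 17.2 CPM (log2 3.92, SE 0.24, limma adjusted p = 0.000212). NR4A1, an orphan nuclear receptor, went from 1.54 and 1.22 CPM to 8.69 and 11.2 CPM (log2 2.88, SE 0.24). In all of these the co-treatment pair was well clear of the control pair. Control levels of these genes were low, as for EGR1 with 22 and 34 counts. The other AP-1 genes FOSB, FOSL2, JUN and JUND rose by 1.5 to 2.95, and KLF4, KLF5 and KLF10 by 0.95 to 2.06. EGR2 and NR4A3 passed the adjusted p with an FPKM at or under 1: EGR2 had 0 and 1 counts and then 13 and 21, and NR4A3 had 3 and 0 and then 17 and 15. The 2 that fell were FOSL1 and IER3, each at −0.61, and each lost its call without co-treatment I.

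Serum response factor, which binds the CArG box, is a textbook regulator of this group. Among the 20 members with a RefSeq promoter window (GRCh38.p14, 250 bases before to 50 after a transcription start), 3 held a CArG box on either strand, against 1.5% of tested genes with a window and 1.29% of all windows: SRF itself, EGR1 and EGR2. Of these 3, EGR1 was called higher, EGR2 passed the adjusted p but not the FPKM threshold, and SRF was at 0.03. Of the 17 without a box 10 were called higher. The match is a description of the letters, and binding was not measured. Shown are the parts of the EGR1 window (chr5:138465354-138465453, plus strand) and of the EGR2 window (chr10:62816367-62816457, minus strand) that hold them, with the boxes in capitals, the nearer box beginning 83 bases before the start in EGR1 and the only one 71 bases before it in EGR2.
EGR1: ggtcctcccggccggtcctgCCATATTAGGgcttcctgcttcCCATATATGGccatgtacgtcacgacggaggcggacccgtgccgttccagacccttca
EGR2: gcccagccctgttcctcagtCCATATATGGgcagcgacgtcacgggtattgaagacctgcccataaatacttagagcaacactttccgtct

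Genes of the integrated stress response rose with co-treatment, 8 of 17 tested, while 1 fell, and the list median was 0.53. Leaving out each library gave 7 to 8 rises and always 1 fall. Besides ATF3, the largest rise was DDIT3, which encodes the pro-apoptotic factor CHOP. It had 25.9 and 28.0 CPM in control and 210 and 193 CPM with co-treatment, a 7.46-fold rise (log2 2.90, SE 0.11, limma adjusted p = 5.18e-05). Another gene on the opposite strand covers 31.6% of the DDIT3 exons and 1 on the same strand 8.03%. ATF4 itself went from 160 and 138 CPM to 236 and 245 CPM (log2 0.70, SE 0.09). PPP1R15A, the phosphatase subunit that reverses eIF2α phosphorylation, rose by 1.78, and CHAC1, a glutathione-degrading enzyme, by 1.48. The member that fell was DDIT4, an inhibitor of mTORC1, from 245 and 186 CPM to 85.8 and 112.6 CPM (log2 −1.10, SE 0.18).

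Amino acid genes, which ATF4 also drives, moved less as a group. Of 31 tested, 6 rose and 1 fell, with a median of 0.05. ASNS, the enzyme that makes asparagine, had 303 and 298 CPM in control and 705 and 667 CPM with co-treatment, a 2.29-fold rise (log2 1.19, SE 0.09, limma adjusted p = 0.000419); 49.3% of its exon length is shared with another annotated gene on the same strand. CTH, which makes cysteine from cystathionine, rose by 1.34 and the neutral amino acid carrier SLC1A4 by 1.24. The glutamine carrier SLC38A2 fell by 0.85, a call lost without co-treatment II or control II. Chaperones of the endoplasmic reticulum, the targets of a different stress pathway, gave 3 rises and no fall among 21, with a median of −0.07 that turned to 0.09 under library-size scaling. HSPA5, their best known member, had 674 and 689 CPM in control and 739 and 733 CPM with co-treatment, a difference of 0.11 that did not pass (limma adjusted p = 0.265).

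The core of the element that ATF4 binds with C/EBP partners was searched as TGATGNAA on both strands. It stood in a window of 4 of 16 stress response genes and 12 of 24 amino acid genes, against 2.59% of tested genes. All 4 stress response genes that held it, ATF3, CHAC1, CEBPG and PPP1R15B, were called higher, with a median of 1.11, and of the 12 without it 4 were higher and 1 lower. Among amino acid genes 3 of 12 with the match and 2 of 12 without it rose. 3 called genes are shown because they carry the match and rose, with the element in capitals: ATF3 (chr1:212565196-212565295, plus strand), CHAC1 (chr15:40953242-40953341, plus strand, where the element reads on the other strand) and ASNS (chr7:97872409-97872496, minus strand).
ATF3: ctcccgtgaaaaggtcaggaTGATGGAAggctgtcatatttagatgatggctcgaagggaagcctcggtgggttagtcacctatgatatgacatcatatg
CHAC1: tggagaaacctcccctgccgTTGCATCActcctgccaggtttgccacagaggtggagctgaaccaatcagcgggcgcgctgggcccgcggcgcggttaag
ASNS: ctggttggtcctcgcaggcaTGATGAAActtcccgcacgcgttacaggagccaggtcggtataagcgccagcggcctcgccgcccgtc

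Phosphatases and Sprouty proteins that feed back on MAP kinases moved in both directions. Of 19 tested, 6 rose and 3 fell. Every called rise was in a dual-specificity phosphatase: DUSP8, DUSP10 at 2.83, DUSP5 at 1.56, DUSP16 at 1.44, DUSP6 at 1.08, and DUSP2 at 0.76, the last of which lost its call without control II or without either co-treatment library. SPRY1, a Sprouty inhibitor of receptor tyrosine kinase signalling, fell from 35 and 38.8 CPM to 12.3 and 13.3 CPM (log2 −1.53, SE 0.16), and SPRY4 and PHLDA1 fell by 0.59 and 0.89. Of 9 genes of the EGF receptor family and its ligands 2 rose and 1 fell. HBEGF and TGFA, both ligands, rose: HBEGF went from 6.58 and 6.62 CPM to 30.8 and 32.1 CPM (log2 2.26, SE 0.15), and TGFA from 2.32 and 2.32 CPM to 6.09 and 6.75 CPM (log2 1.47, SE 0.25). Neither pair of ligand values overlapped the controls, as in every called gene. The feedback inhibitor ERRFI1 fell by 0.60, and EGFR itself changed by −0.10 without passing the test. Targets of the YAP coactivator gave 5 rises and 1 fall among 18, of which 12 lay above 0 and 6 below it. Their median of 0.25 ran from 0.22 to 0.44 with each library left out. Members above 0 included CYR61 at 0.62, CTGF at 0.72 and the coagulation starter F3 at 2.1.

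**Figure D2:**
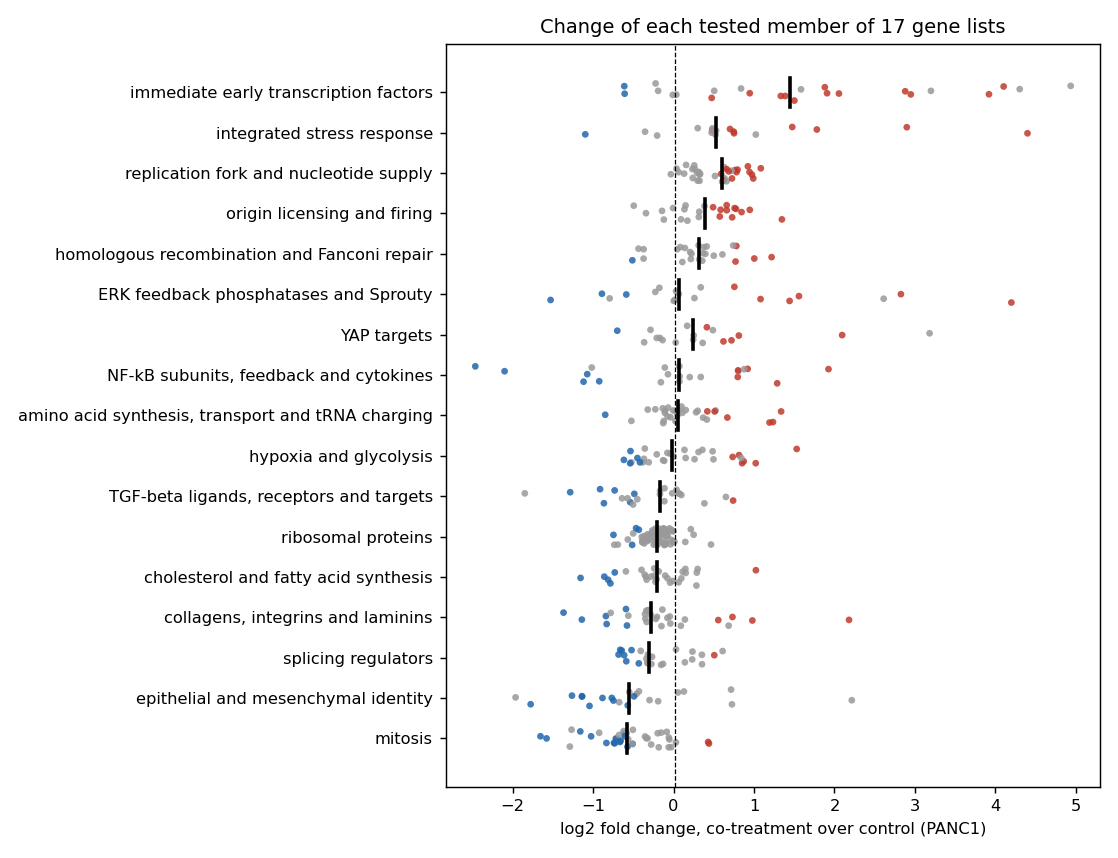
Points are tested members of 17 gene lists by their log2 fold change of co-treatment over control in PANC1, red where called higher, blue where called lower and grey where not called; black bars are list medians and the dashed line the median of all tested genes, 0.01. Immediate early factors lie furthest to the right with a median of 1.44, and mitosis and epithelial and mesenchymal genes furthest to the left, at −0.57 and −0.56.

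Genes that start and run DNA replication rose. In origin licensing and firing 11 of 23 were higher and none lower, with a median of 0.39 (9 to 11 higher and 0 to 1 lower over the left-out fits). At the fork and in nucleotide supply 13 of 34 were higher and none lower, with a median of 0.60 (11 to 18 higher and 0 lower), and 33 of 34 lay above 0. CDC6, which loads the MCM helicase, had 115.4 and 118.9 CPM in control and 309 and 289 CPM with co-treatment, a 2.54-fold rise (log2 1.35, SE 0.09, limma adjusted p = 0.000259). The primase subunit PRIM1 went from 29.9 and 40.9 CPM to 83.8 and 67.9 CPM (log2 1.08, SE 0.17), and POLD3, a subunit of polymerase delta, from 59.8 and 68.9 CPM to 137 and 118 CPM (log2 0.98, SE 0.12). Co-treatment libraries were above both controls in each, as in every called rise. The firing factors CDC45 and GINS4 rose by 0.85 and 0.95, and the flap endonuclease FEN1 by 0.66. PCNA, the sliding clamp, was at −0.03 and did not pass.

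Of 13 E2F factors and pocket proteins 4 rose and 1 fell, with a median of 0.03. E2F1, E2F2, E2F7 and E2F8 rose by 0.99, 1.22, 1.15 and 1.35, the first pair being activators and the second repressors of the E2F family, while E2F5 fell by 0.63, a call lost without co-treatment II or control II. Cyclins, their kinases and the inhibitors gave 4 rises and 4 falls among 21, with a median of −0.01. CCNE1, the cyclin that opens S phase, rose by 0.79, its kinase CDK2 by 0.61 and the phosphatase CDC25A, which activates that kinase, by 0.96. CCNE2 was at 1.38 and lost its call without co-treatment I (limma adjusted p = 0.153) or control I (0.121). The falls were CCNB1, described with the mitosis genes, CCNB2 at −0.73, CDK6 at −0.83, a call lost without co-treatment II or control II, and CDC25B at −0.52, a call lost without co-treatment I. Of 25 genes for homologous recombination and Fanconi repair 4 rose and 1 fell (1 and 0 without co-treatment I, 7 and 0 without co-treatment II), led by the exonuclease EXO1, from 40.0 and 53.2 CPM to 127 and 93.7 CPM (log2 1.22, SE 0.18).

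E2F sites were searched as TTTCCCGC or TTTGGCGC on both strands. A match stood in a window of 11 of 20 licensing genes and 10 of 29 fork genes, against 4.49% of tested genes, 5.23% of genes called higher and 2.90% of genes called lower. Within the lists it did not go with a larger change: licensing genes with the match had a median of 0.32 and those without it 0.57, and fork genes had 0.45 and 0.52. Shown are GINS2 (chr16:85688955-85689005, minus strand), a subunit of the firing complex that rose by 0.73, and the factor E2F2 (chr1:23531234-23531295, minus strand), with the site in capitals.
GINS2: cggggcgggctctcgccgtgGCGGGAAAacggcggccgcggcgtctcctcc
E2F2: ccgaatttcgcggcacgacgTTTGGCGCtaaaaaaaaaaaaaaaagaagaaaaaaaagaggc

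Mitosis genes moved the other way. Of 39 tested, 14 fell and 2 rose, and the median was −0.57; 36 of 39 lay below 0. PLK1, the kinase that drives mitotic entry, had 214 and 172 CPM in control and 56.4 and 71.4 CPM with co-treatment, 2.99-fold lower (log2 −1.58, SE 0.16, limma adjusted p = 0.00118). CCNB1, the mitotic cyclin, went from 435 and 455 CPM to 203 and 190 CPM (log2 −1.18, SE 0.09), and CDC20, an activator of the anaphase-promoting complex, from 399 and 304 CPM to 179 and 208 CPM (log2 −0.83, SE 0.15). No co-treatment library of these reached a control library, as in every called fall. KIF20A fell by 1.02, AURKA by 0.74, CDCA8 by 0.72, UBE2C by 0.66, PRC1 by 0.57 and PTTG1 by 0.51. The kinetochore motor CENPE had the lowest value, −1.65, with 223 and 655 counts in control and 121 and 54 with co-treatment, and lost its call without co-treatment II or control II. CENPF, CENPA, BUB1 and BUB1B also lost theirs without co-treatment II. The count of members that fell was 9 without co-treatment II, 24 without control I, 28 after GC correction and 10 under library-size scaling. The 2 rises, SPC24 at 0.43 and KIF2C at 0.44, were near the fold threshold, and each lost its call without control II.

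The cell cycle homology region, bound by the DREAM and MuvB complexes, was searched as TTTGAA on both strands. It stood in a window of 25 of 33 mitosis genes, against 13.1% of tested genes, 15.2% of genes called lower and 10.7% of genes called higher. Among mitosis genes with it 8 of 25 fell and none rose, with a median of −0.58, and among the 8 without it 4 fell and 2 rose, with a median of −0.35. The ends of 3 windows are printed because the element lies within 30 bases of the start in genes that fell, in capitals: PLK1 (chr16:23678840-23678888, plus strand), CDCA8 (chr1:37692473-37692515, plus strand) and PRC1 (chr15:90994536-90994575, minus strand).
PLK1: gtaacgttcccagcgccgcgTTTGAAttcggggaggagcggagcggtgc
CDCA8: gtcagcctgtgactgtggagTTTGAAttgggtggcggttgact
PRC1: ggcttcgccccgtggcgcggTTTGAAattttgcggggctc

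Genes that handle gemcitabine itself were mixed. Of 14 tested 3 rose and 1 fell. RRM1, the large subunit of ribonucleotide reductase, had 264 and 318 CPM in control and 536 and 437 CPM with co-treatment (log2 0.73, SE 0.13), and RRM2, the small subunit, 533 and 573 CPM and then 835 and 835 CPM (log2 0.59, SE 0.08). SLC29A1, the main uptake transporter, fell from 687 and 578 CPM to 420 and 451 CPM (log2 −0.52, SE 0.10). DCK, the activating kinase, was at 0.44 (SE 0.23) and CDA, the inactivating deaminase, at −0.53 (SE 0.53), neither of which passed. The list median of −0.06 turned to 0.09 under library-size scaling. Among 8 efflux transporters, ABCB1 rose, as given above, and ABCC1 fell from 783 and 681 CPM to 354 and 380 CPM (log2 −0.98, SE 0.10). ABCC4 and ABCG2 fell by 0.79 and 0.61, calls lost without co-treatment II or control II for the first and without co-treatment I for the second. ABCC3 was at 0.07 (limma adjusted p = 0.721).

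GADD45A, a DNA damage sensor that binds stress kinases, went from 29.6 and 33.1 CPM to 92.3 and 108.6 CPM (log2 1.67, SE 0.14), AEN, a nuclease of apoptosis, from 76.7 and 67.1 CPM to 171 and 191 CPM (log2 1.34, SE 0.11), and PLK3 rose by 1.24. These rose beside BTG2, while the cell cycle inhibitor CDKN1A (0.45, limma adjusted p = 0.0623) and the ubiquitin ligase MDM2 (0.01) did not pass. Calls of apoptosis regulators, given next, were near the shares of all tested genes, 10.2% higher and 6.9% lower. Apoptosis regulators gave 4 rises and 3 falls among 37, and 2 and 2 without co-treatment I. BCL2A1, a survival factor, rose by 1.28, the BH3-only killer PMAIP1 by 1.36 and CASP9 by 0.79; PMAIP1 lost its call without co-treatment I and CASP9 without co-treatment I or control II. BIK, another BH3-only gene, was at 2.31, a call lost without 3 of the 4 libraries in turn. The death receptor TNFRSF1A fell from 198 and 171 CPM to 77.8 and 88.9 CPM (log2 −1.14, SE 0.12), and BMF fell by 1.18. The other called fall was DIABLO, a mitochondrial protein that relieves caspase inhibition, at −0.69 in counts, while its FPKM went from 83.2 and 75.1 to 117.0 and 109.5. Its call was lost without control II or either co-treatment library.

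**Figure D3:**
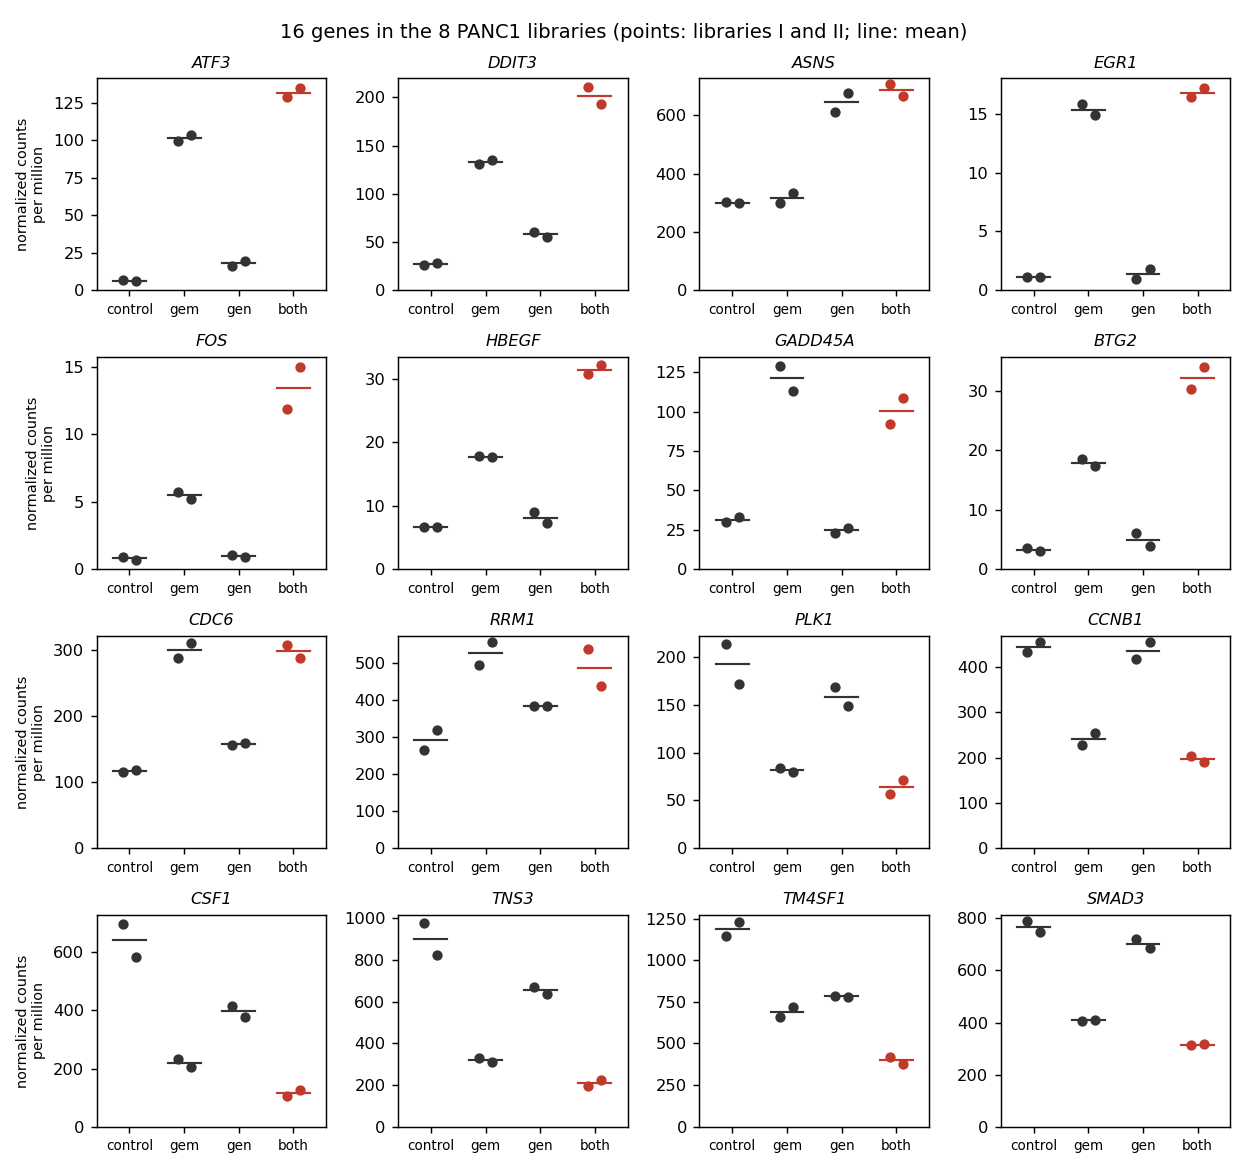
Points are the normalized CPM of 16 genes in the 8 PANC1 libraries, replicate I at the left and II at the right of each group, with a line at the group mean; gem is gemcitabine, gen genistein and both the co-treatment, in red. ASNS is at the co-treatment level with genistein alone (611 and 676 CPM), while EGR1 (15.8 and 14.9 CPM) and CDC6 (289 and 312 CPM) are there with gemcitabine alone.

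The NF-kB list was split evenly, 5 higher and 5 lower of 21. The rises were TNFAIP3, which shuts the pathway off, from 8.43 and 10.2 CPM to 37.8 and 33.4 CPM (log2 1.93, SE 0.16), RELB at 1.29, NFKB2 at 0.80, REL at 0.92 and TRAF1 at 0.80. RELB lost its call without control II (limma adjusted p = 0.0520), and REL without co-treatment I or control I. Falls were CSF1, given above, CXCL1, the neutrophil chemokine, from 5.55 and 5.49 CPM to 1.2 and 1.36 CPM (log2 −2.1, SE 0.23), and CCL2, the monocyte chemokine, from 77.0 and 84.1 CPM to 36.5 and 37.8 CPM (log2 −1.12, SE 0.12). NFKBIA, the inhibitor that holds NF-kB in the cytoplasm, fell from 87.7 and 74.3 CPM to 34.1 and 42.3 CPM (log2 −1.07, SE 0.14), and TNFAIP2 fell by 0.92.

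Genes of epithelial and of mesenchymal identity mostly fell. Of 22 tested 10 fell and none rose, with a median of −0.56, and 6 fell without co-treatment I. Of the 22, 17 lay below 0 and 5 above it, the highest at 2.22. No rise was called, but 1 passed the adjusted p. The adherens junction cadherin CDH1 went from 23.6 and 20.5 CPM to 7.20 and 5.71 CPM (log2 −1.78, SE 0.18), and the ductal keratin KRT19 from 811 and 632 CPM to 251 and 346 CPM (log2 −1.26, SE 0.18). On the mesenchymal side, VIM, the intermediate filament of mesenchymal cells, went from 5896 and 5523 CPM to 2638 and 2890 CPM (log2 −1.04, SE 0.07), and the matrix proteins SPARC and TNC each fell by 1.14. CDH1, KRT19, VIM, SPARC and TNC kept their calls without any 1 of the 4 libraries; KRT8, CLDN7, ESRP2, JUP and DSP did not. In these bulk cultures fewer cells with a transcript and less transcript per cell cannot be told apart. In the TGF-β list 6 of 23 fell and 1 rose, led by SMAD3, the signal transducer, from 789 and 748 CPM to 313 and 317 CPM (log2 −1.28, SE 0.07), and by the matrix binder LTBP2 at −0.87. TGFBR2, TGFBR3, SMAD6 and SMAD7 fell too, but each lost its call without co-treatment I, as did the rise of ID2 (0.74), and in that fit the list held 2 falls and 1 rise, the latter in ID3.

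Metabolic lists were divided. Among 30 tested genes of hypoxia and glycolysis 6 rose and 5 fell, with 2 falls without co-treatment I and 9 without control II: EGLN3, a HIF hydroxylase, rose by 1.53, the neuronal enolase ENO2 by 1.02, NDRG1 by 0.87 and PFKFB3 by 0.85, whereas LDHA fell by 0.62 and GAPDH by 0.54. The list median of −0.02 turned to 0.14 under library-size scaling. Of 29 genes for cholesterol and fatty acids 5 fell and 1 rose (3 fell without co-treatment I and 8 without control II), with ACACA, which starts fatty acid synthesis, at −0.86, and the ubiquitin ligase MYLIP at 1.02. FASN at −1.16 and SREBF1 at −0.81 lost their calls without co-treatment I or control I. Splicing regulators gave 7 falls and 1 rise among 25, of which only SRSF2, at −0.68, was called whichever of the 4 libraries was left out; without co-treatment II it was the 1 fall left. Of 79 ribosomal protein genes tested 4 fell and none rose, with a median of −0.20, and 74 lay below 0. That count was 1 without co-treatment I, 13 without control II, 16 after GC correction and 1 under library-size scaling, and many of these genes have processed pseudogenes that can share their reads.

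Matrix and adhesion genes moved in both directions. Of 29 collagens, integrins and laminins 4 rose and 6 fell, with 1 rise and 2 falls without co-treatment I and 1 rise without control I. ITGB6, the integrin chain that helps to activate TGF-β, rose from 0.61 and 0.45 CPM to 1.79 and 2.87 CPM (log2 2.18, SE 0.36), and COL5A2 fell by 0.58, and these kept their calls without any 1 of the 4 libraries. The laminin chain LAMA5 at −1.37 and the collagen COL18A1 at −1.14 lost theirs without co-treatment I or control I. Among 26 lysosome and autophagy genes 4 rose and 1 fell (3 to 5 and 0 to 1 over the left-out fits), led among well-counted members by NEU1, a lysosomal sialidase, from 87.1 and 69.0 CPM to 170 and 182 CPM (log2 1.2, SE 0.13), and by GABARAPL1, an autophagosome protein, at 0.84.

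The remaining lists gave few calls. Calcium release and entry had 1 rise and 3 falls among 18, and 5 falls without control II, with ATP2A2, a calcium pump of the endoplasmic reticulum, at −0.48. The aryl hydrocarbon receptor pathway had 1 rise and 2 falls among 7, none of them kept in every left-out fit: the receptor AHR at 0.92, its repressor AHRR at −0.57 and its target CYP1B1 at −0.92. Interferon and antigen presentation genes had 1 rise and 2 falls among 26 (0 and 1 without co-treatment II or control II), and the chaperone TAPBP, at −0.70, was the call that was kept. Replication-dependent histones had 1 rise and 2 falls among 11, but poly-A libraries capture few of these transcripts, and mitochondrially encoded genes 2 falls among 13, with MT-ND6 at −1.42. OSGIN1, at 1.28, was the single call among 16 genes of NRF2 and ferritin, where 2 falls appeared without co-treatment I, control I or control II. MT1A, at 0.67, was the single call among 8 metallothioneins and zinc exporters, and it was lost without co-treatment I or control II.

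Genes that the study names for drug resistance or for the action of genistein were also read, and the list built around estrogen receptors and genistein gave 3 rises and 3 falls among 12. MUC1, a membrane mucin, fell from 31.7 and 27.8 CPM to 12.4 and 13.6 CPM (log2 −1.18, SE 0.15), and TM4SF1, a tetraspanin-like surface protein, from 1143 and 1229 CPM to 420 and 377 CPM (log2 −1.58, SE 0.08). VDR, the vitamin D receptor, rose from 9.80 and 9.92 CPM to 20.4 and 22.1 CPM (log2 1.11, SE 0.13), and its partner RXRA fell by 0.90, a call lost without co-treatment I. The groups were apart in each, as in every called gene. SP1 fell by 0.48, ITPR1, an endoplasmic calcium channel, rose by 0.66, a call lost without co-treatment I (limma adjusted p = 0.0538), and HMGA2 fell by 0.68, a call lost without control II or either co-treatment library. HOTAIR was at −0.41 (limma adjusted p = 0.143) and GPER1 at 0.18 (limma adjusted p = 0.731), with GPER1 at 165 and 185 counts and then 85 and 186. ESR1 and ESR2, the nuclear estrogen receptors, were too low to be tested.

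The 2 monotherapies were read from the same 8 libraries, so they share the control with the co-treatment and are given side by side. Against control, gemcitabine alone gave 1272 called genes (7.52%) and genistein alone 10 (0.0591%), beside 2897 with both. The gemcitabine count was 701 without control I and 1919 without control II, and the genistein count 1 and 0, and 41 without either co-treatment library. Other processing gave genistein alone many more calls: 1227 after GC correction, 754 with DESeq2 and 715 in a fit of all 16 libraries, where gemcitabine alone gave 3086, 1704 and 2409. For ATF3 the log2 changes were 4.03 with gemcitabine, 1.52 with genistein and 4.40 with both. DDIT3 stood at 2.30, 1.10 and 2.90, CDC6 at 1.36, 0.43 and 1.35, PLK1 at −1.22, −0.26 and −1.58, and CSF1 at −1.53, −0.68 and −2.46. ASNS had the opposite weighting, 0.08 with gemcitabine, 1.10 with genistein and 1.19 with both.

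Tested directly, the co-treatment differed from genistein alone in 1383 genes (8.18%), 655 higher (3.87%) and 728 lower (4.31%), and from gemcitabine alone in 3 (0.0177%). Without co-treatment II the first count was 463. The 3 were ASNS, from 301 and 332 CPM with gemcitabine to 705 and 667 CPM (log2 1.12, SE 0.09, limma adjusted p = 0.0122), the noncoding RP11-284F21.10 (log2 1.93, SE 0.15), and KLF6, a zinc finger factor (log2 −1.19, SE 0.10). RP11-284F21.10 and KLF6 were named because the count was so small. KLF6 had risen by 0.97 with gemcitabine alone and was at −0.22 against control with both, where it did not pass. At an unadjusted p under 0.05 there were 2262 of 16909 genes against gemcitabine. The same contrast gave 3 genes with edgeR, 207 with DESeq2, 485 in a fit of all 16 libraries and 1263 after GC correction. It gave 0 without either co-treatment library and 7 without either control library.

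Whether the combined change departed from the sum of the single changes on the log2 scale was tested as an interaction. No gene passed with limma or with edgeR's quasi-likelihood test, and 4 passed with DESeq2 and 2 after GC correction. At an unadjusted p under 0.05 there were 832 genes with limma and 969 with edgeR, of 16909 tested. A share of about 0.05 would be reached at that level with no interaction in any gene. The interaction was −1.15 (SE 0.19) for ATF3, −0.51 (SE 0.16) for DDIT3 and −0.44 (SE 0.13) for CDC6, below the sum of the 2 drugs, and 0.96 (SE 0.40) for FOS, above it, all with a limma adjusted p of 0.734. For ASNS it was 0.02 (SE 0.12). The extreme values of the rule, SLC6A10P at 4.70, DDTL at 4.28, ZNF23 at 3.05, DPY19L1P2 at −3.61, HMGB3P8 at −3.02 and CHEK2P2 at −2.74, came from genes with at most 48 counts in any control or co-treatment library.

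The co-treatment response was set against that of MiaPaCa2 in a fit of all 16 libraries, in which the lines share no sample. The 2 responses differed in 3239 of 17863 genes (18.1%), 1319 with the larger value in PANC1 and 1920 with the smaller. That split depended on the scaling, at 1824 and 1397 with library size alone and 2652 and 2680 after GC correction. That count was 1803 without PANC1 co-treatment I and 5513 without PANC1 control II. In that fit 13783 genes had a mean FPKM above 1 with co-treatment in both lines, and so were open to a call in both. Of these, 3407 were called in PANC1 (24.7%) and 5345 in MiaPaCa2 (38.8%). The 1896 called in both were 55.7% of the first list and 35.5% of the second. Of these 1691 moved the same way, 1067 up and 624 down, and 205 moved in opposite directions.

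DNA damage and stress genes were among those with a larger rise in PANC1. BTG2 rose by 3.32 in PANC1 and was at −0.12 in MiaPaCa2, with 3481 and 3104 counts in MiaPaCa2 control and 2786 and 3232 with co-treatment (difference 3.45, SE 0.22, limma adjusted p = 1.56e-06). AEN was at 1.32 and −0.51 (difference 1.83, SE 0.16), GADD45A at 1.65 and 0.26 (difference 1.39, SE 0.21), and DDIT3 at 2.88 and 0.97 (difference 1.91, SE 0.16). EGR1 rose by 3.90 and 1.60 (difference 2.30, SE 0.25). POLD3 was at 0.96 and −0.16 (difference 1.12, SE 0.14).

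Other genes went further up in MiaPaCa2. VDR rose by 1.09 in PANC1 and 3.21 in MiaPaCa2 (difference −2.12, SE 0.19), and TGFA by 1.45 and 5.67 (difference −4.22, SE 0.56). BMF went down in PANC1 (−1.2) and up in MiaPaCa2 (1.2), a difference of −2.40 (SE 0.25, limma adjusted p = 5.97e-05), and IER3 likewise, at −0.63 and 1.17. CSF1, SMAD3 and TM4SF1 fell further in PANC1, with differences of −1.75, −0.92 and −1.10. For PLK1 (−1.60 and −0.96, difference −0.64, SE 0.22), CCNB1 (−1.21 and −0.86, difference −0.35, SE 0.12), RRM1 (0.71 and 0.47, difference 0.24, SE 0.16), TNS3 (−2.12 and −1.64, difference −0.48, SE 0.16) and MUC1 (−1.2 and −1.40, difference 0.20, SE 0.24) the difference did not pass the test.

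**Figure D4:**
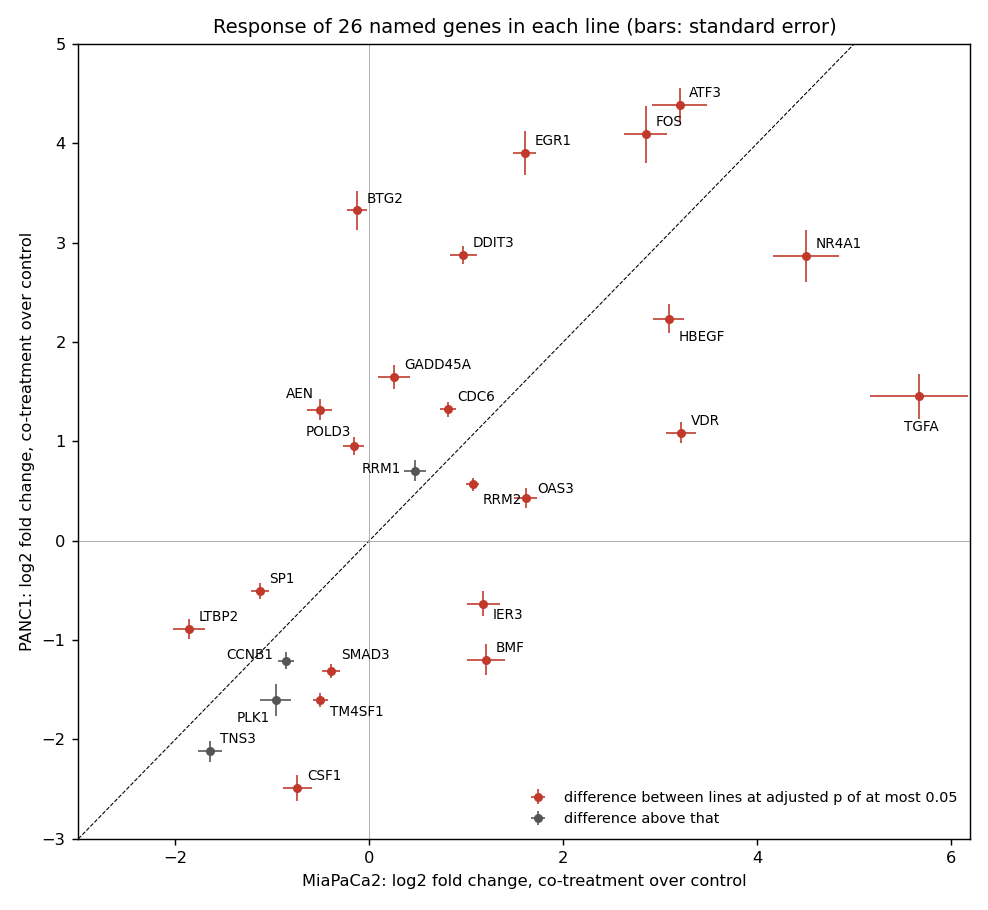
Points are the log2 fold changes of 26 named genes with co-treatment in MiaPaCa2 (x axis) and PANC1 (y axis) from the fit of 16 libraries, with bars of 1 standard error and a dashed line of equal change; red points differ between lines at a limma adjusted p of at most 0.05. BTG2 is at 3.32 in PANC1 and −0.12 in MiaPaCa2, TGFA lies far to the right, and BMF and IER3 sit at the lower right, where the lines move in opposite directions.

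How far the counts of called genes depended on processing is drawn setting by setting. Over the settings drawn the rises ran from 376 in a fit of the 4 compared libraries alone to 2686 with library-size scaling, and the falls from 198 in that fit of 4 libraries to 2746 after GC correction.

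**Figure D5:**
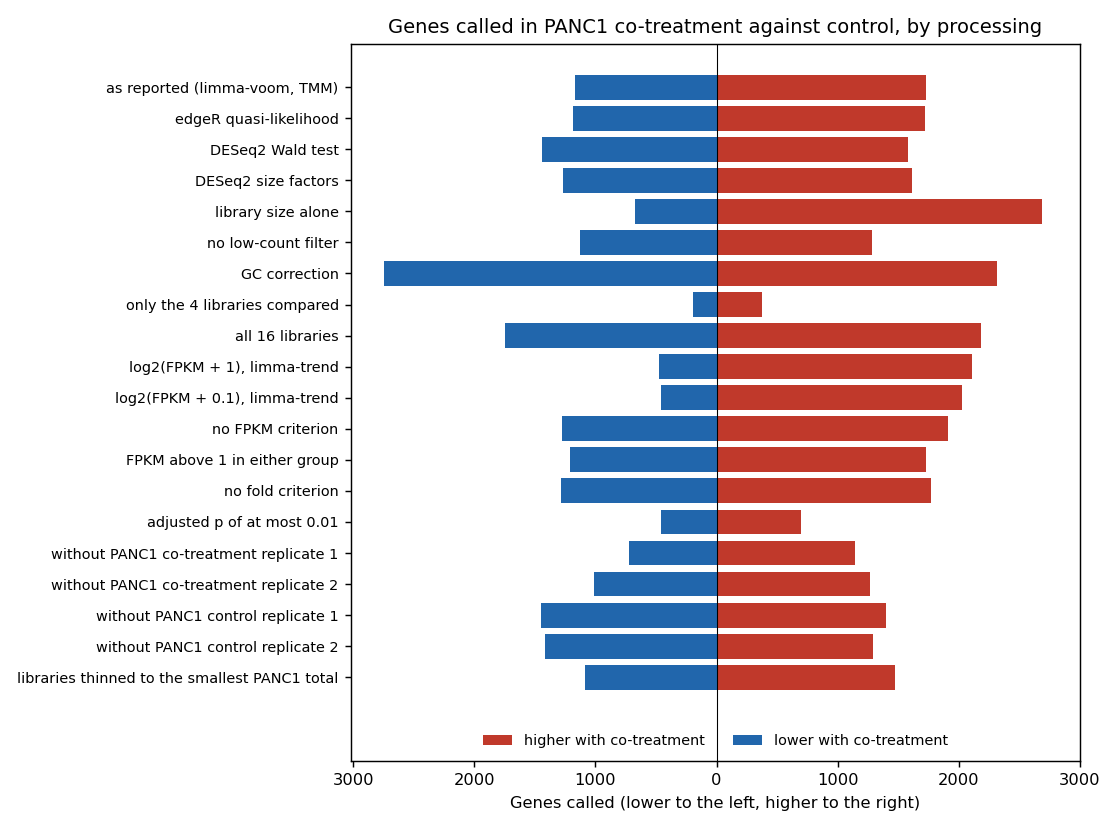
Bars give the number of genes called lower (blue, to the left) and higher (red, to the right) with co-treatment in PANC1 under different ways of processing the same libraries. Settings with libraries paired as a block are not drawn. The bars are shortest when only the 4 compared libraries were fitted (198 and 376), and the falls are most numerous after GC correction (2746).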

How the data were processed

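Poly-A RNA was sequenced from bulk cultures of PANC1 and MiaPaCa2. Per the labels and the study's methods, the authors aligned single reads of 50 bases to GRCh37 with TopHat2 2.0.4, removed multiply aligned reads with Picard 1.29, counted reads per gene with HTSeq 0.6.1 and deposited raw counts for 63677 genes. They also deposited a table of FPKM values from Cufflinks 2.1.1, normalized for gene length and depth. Which annotation release was used, and whether counting took strand into account, is not given in the sources used here.

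Genes were kept by edgeR's filterByExpr, scaled by TMM and fitted with limma-voom (limma 3.58.1, edgeR 4.0.16, R 4.3.3) over the 8 PANC1 libraries with 1 mean per group, which left 4 residual degrees of freedom. p-values were adjusted by Benjamini-Hochberg over all 16909 genes. Fold changes are fitted log2 values, and errors are limma's standard errors. With 2 libraries a group the p-values measure the spread between these libraries. Counting intervals are exact, at 95%, and cover counting error only. The GC correction removed a loess trend (span 0.3) per library, using GC content and exon overlaps from GENCODE 44 lifted to GRCh37, which 346 tested genes lack. FPKM rows sharing 1 identifier (128 identifiers) were summed. Alternatives also covered edgeR's quasi-likelihood test, DESeq2 1.42.0, other scalings, no filter, log2(FPKM + 1) and log2(FPKM + 0.1), other thresholds, all 16 libraries, and each library left out. The test script was tested on simulated counts.

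Named genes were the 12 protein-coding and 3 other called genes with the largest change each way and no overlap between groups, genes the study names, up to 3 members each way of each gene list with its defining members, and up to 3 each way by line difference and interaction; other exceptions are stated, and some genes and 1 list under these rules are not reported here. The comparison, the lists and the rules were chosen with earlier results of these data known. Promoter sequences are RefSeq's for GRCh38.p14, and 11131 of the 16909 tested genes had a window, with any window of a gene counted.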

Additional observations from a re-analysis of the deposited data

Results flagged for a closer look

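The responses of PANC1 and MiaPaCa2 to co-treatment differed, by limma's test of the difference in the fit of 16 libraries, in 3239 genes at an adjusted p of at most 0.05. The named genes with the widest differences mostly had very few reads in 1 line. RASD1, a small GTPase induced by dexamethasone, differed by −6.19 (SE 0.85, adjusted p = 0.000388): it was at 0.02 in PANC1 and went from 3 and 0 counts to 88 and 117 in MiaPaCa2. SCNN1B, a subunit of the epithelial sodium channel, differed by −5.73 (SE 0.81, adjusted p = 0.000478), with 0 counts in both MiaPaCa2 controls and 15 and 23 with co-treatment. DGKG, a diacylglycerol kinase, differed by −4.74 (SE 0.74, adjusted p = 0.000929), with 0 counts in both MiaPaCa2 controls and 15 and 24 with co-treatment.

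In the other direction, HCP5 differed by 5.12 (SE 0.88, adjusted p = 0.00176), with 5 and 2 counts in MiaPaCa2 control and 0 and 2 with co-treatment. PRR7-AS1 differed by 4.94 (SE 0.88, adjusted p = 0.00236): it went from 22 and 19 counts to 0 and 2 in MiaPaCa2 and did not pass in PANC1 (19 and 22 counts, then 15 and 31). ALOXE3 differed by 4.40 (SE 0.45, adjusted p = 4.65e-05), rising in PANC1 and going from 28 and 24 counts to 10 and 12 in MiaPaCa2. The fitted size of each difference that rests on counts near 0 depends on the prior count and is not a bound.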

How the results depend on the processing

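The 2897 called genes became 5063 after GC correction, 4839 with GC correction and the replicate block, 574 with only the 4 libraries, 1162 at an adjusted p of at most 0.01, and 1865 to 2845 with 1 library left out. The 1730 rises became 2686 with library size alone, 1152 with the block, 376 with 4 libraries, 701 at 0.01, and 1143 to 1398 with 1 left out. The 1167 falls became 677 with library size alone, 2746 after GC correction, 2646 with GC correction and block, 198 with 4 libraries, 475 on log2(FPKM + 1), 461 on log2(FPKM + 0.1), 461 at 0.01, and 722 to 1447. Against gemcitabine the 3 genes became 0 with the block, 1263 after GC correction and 0 to 7; against genistein the 1383 became 499, 3792 and 463 to 1812. The interaction went from 0 to 2 genes after GC correction and stayed at 0 with 1 library left out, and the line difference from 3239 to 5332, or 1803 to 5513. The cause of these moves was not tested, except that fewer libraries leave fewer degrees of freedom. The fit of 4 libraries also took its spread from the compared groups alone. Same-numbered libraries do not share a stated culture or day, and their deviations did not move together. Correlations were −0.508 to 0.259 over 6 pairs of groups, −0.508 for the pair compared and −0.178 for that pair after GC correction. The replicate block, with 1950 genes, is therefore an alternative only. With the 4 libraries alone, same-numbered pairs as block gave 594 genes (399 higher, 195 lower) and crossed pairs, added after the data were seen, 5069 (2876 and 2193). The sorting of repeats of the named genes did not follow the call at every threshold. All 179 genes counted as the same at an adjusted p of at most 0.01 and with no FPKM criterion. Over all settings 3584 repeats counted as the same, 501 as weaker, 5 as stronger and 13 as turned in direction. The last were with 1 library left out, ABCC3 (−0.12 to 0.18), DDTL (−2.35 to 3.10), DPY19L1P2 (−0.58 to 3.83), GPER1 (−0.31 to 0.65), RASD1 (−0.34 to 0.38) and SCNN1B (−1.05 to 0.10), and, on log2(FPKM + 1) and log2(FPKM + 0.1), DIABLO (0.51 and 0.52) and MMRN2 (0.048 and 0.10). Depth limits genes under about 10 counts; thinning to the smallest total, 12943482, also added later, left 2563 calls.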
